A study of Mus musculus with 12 samples.

Results

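The intact INV16 fusion was compared with a mutant INV16 that lacks its assembly competence domain, using 6 of the 12 arrays of the series: INV16 replicates 1 to 3 and ACD mutant replicates 1 to 3. Arrays were chosen by their titles, and INV16 replicate 4, which stood apart from all other arrays, is given apart and was left out of the INV16 mean, though it counted in the limit for low values and the choice of probe sets. Genes were compared across the whole array, 12918 in all, to find those whose expression differed with and without the domain.

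All 12 samples were normal mouse bone marrow cells sorted as negative for lineage markers and FLT3 and positive for c-kit and sca-1, named KSLF in the source labels and KLSF in the sample titles. Their medium held 10% serum with 50 ng/ml of stem cell factor and 5 ng/ml of interleukin 6, and after 24 h they met retrovirus and polybrene for 4 h. Cells carrying the vector's GFP were sorted and their RNA was measured on Affymetrix arrays after 2 cycles of cDNA amplification. Strain, age and sex are not given in the sources used here. The first group received retrovirus encoding INV16. The second received retrovirus encoding INV16 with the assembly competence domain deleted, named ACD mutant and described by the authors as non-leukemogenic. The 5 MIB control samples, numbered 3 to 7, received the empty vector and serve here as the common background of virus, GFP and sorting. The design text counts replicates as repeated sorts, transductions and analyses. The p-values rest on the spread between replicates within each group, pooled over the 3 groups. They do not measure differences between the separate sets of arrays described below. In all groups the fusion or vector came from a retrovirus in cells that keep their own Cbfb genes, and cells were taken 24 h after transduction, so the measurements describe early expression in a sorted pool and not leukaemia.

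INV16 is the CBFB-MYH11 fusion of acute myeloid leukaemia. CBFB is the partner subunit that strengthens the DNA binding of RUNX proteins, transcription factors of blood formation, and MYH11 is the heavy chain of smooth muscle myosin. The fusion joins most of CBFB to the myosin tail, whose assembly competence domain lets molecules pack into multimers, and it holds RUNX proteins in repressing complexes.

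The labelled cell type was checked on its own markers. Kit, the receptor for stem cell factor, was measured at 11.02, 11.23 and 10.26 log2 units on INV16 replicates 1, 2 and 3 and at 10.78, 11.07 and 11.25 on the ACD mutant arrays. Cd34, a sialomucin of progenitors, was at 12.08, 12.35 and 11.47 in INV16 and at 11.15, 11.27 and 11.82 in the ACD mutant. Both were among the brighter probe sets in both groups. Flt3, whose protein the sort selected against, was at 8.03 to 9.76 on these 6 arrays, above the limit of 5.10 used for low values, so its mRNA was measured in cells sorted as FLT3-negative. None of the 3 passed the test between the fusions. The difference was -0.20 for Kit (adjusted p = 0.69), 0.55 for Cd34 (adjusted p = 0.198) and 0.59 for Flt3 (adjusted p = 0.397). On INV16 replicate 4 Cd34 was 7.39 and Kit 10.99.

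The arrays fell into separate sets by their spike-in controls, bacterial transcripts added to every sample. The log2 difference between the controls BioC and BioB was 1.17 to 1.21 on INV16 replicates 1 to 3 and 1.07 to 1.15 on MIB control replicates 3 to 5, and it was -0.07 to -0.01 on the ACD mutant arrays and -0.11 to -0.07 on MIB control replicates 6 and 7. INV16 replicates 1 to 3 and the mutant therefore lie on opposite sides of this split. INV16 replicate 4, at 0.07, lay on the side of the mutant. With that array left out, only the MIB control arrays lie on both sides. In the model used here, a difference between the fusions and a difference between the sides cannot be told apart except through those 5 arrays. The spread within INV16 replicates 1 to 3 and within the mutant holds no difference between the sides. The log2 ratio of the 3' to the 5' Gapdh probe sets, a sign of RNA length, was 1.33, 1.10 and 1.53 in INV16 replicates 1 to 3, 3.17, 1.98 and 1.63 in the ACD mutant and 1.34 to 1.76 in MIB control. INV16 replicate 4 had the highest ratio of the series, 3.64. The part of this ratio in the results was not tested. Correlations between the 6 arrays over all probe sets were 0.987 to 0.996. The SD of the difference between 2 arrays was 0.22 to 0.34 within the groups and 0.29 to 0.39 between them.

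Most genes that passed the test were higher in cells with the mutant. Of the 12918 genes, 267 were called at a limma adjusted p under 0.05 (2.07%), of which 40 were higher (0.31%) and 227 lower (1.76%) in cells with the intact fusion than in cells with the mutant. The genes lower with the intact fusion included Runx3 and Tle3, a RUNX factor and a corepressor that RUNX proteins recruit, the blood lineage factors Nfe2 and Irf8, and interferon-induced genes such as Ifit1. The genes higher with it included Nrp1, a receptor for semaphorins and VEGF, the cytokine gene Il6 and Tm4sf1, a membrane protein of the tetraspanin-like L6 family. The log2 differences of called genes ranged in size from 0.43 to 2.43 with a median of 0.80, and the median over all genes tested was -0.02.

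With the spike-in split as a block in the same model, 0 genes were called by limma (0%), and 1492 genes (11.5%) had an unadjusted p under 0.05, among them 201 of the 267. All 267 called genes had the same direction with the block, 228 were at least 50% as large and 54 at least as large. These genes were called for large differences on the same arrays, which favours such agreement, so it is no further support. The shares over all genes were not counted. Their median size with the block was 0.58 and their adjusted p 0.0656 to 0.713. With the block and single arrays left out, 0 to 19 genes were called. The 19 came without INV16 replicate 3, and they included Runx3 (-2.19, adjusted p = 0.00325), Fut8 (-1.40, adjusted p = 0.00795) and Procr, a protein C receptor of stem cells (2.25, adjusted p = 0.000838), chosen here after their values were seen. The calls below are those of the model without the block, and the value with the block is given beside each gene as "blocked". When single arrays were left out without the block, 36 to 505 genes were called. The counts were 78 without INV16 replicate 1, 54 without INV16 replicate 2, 215 without INV16 replicate 3, and 81, 36 and 114 without ACD mutant replicates 1, 2 and 3. They were 386, 355, 192, 275 and 505 without MIB control replicates 3 to 7 in turn.

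**Figure D1:**
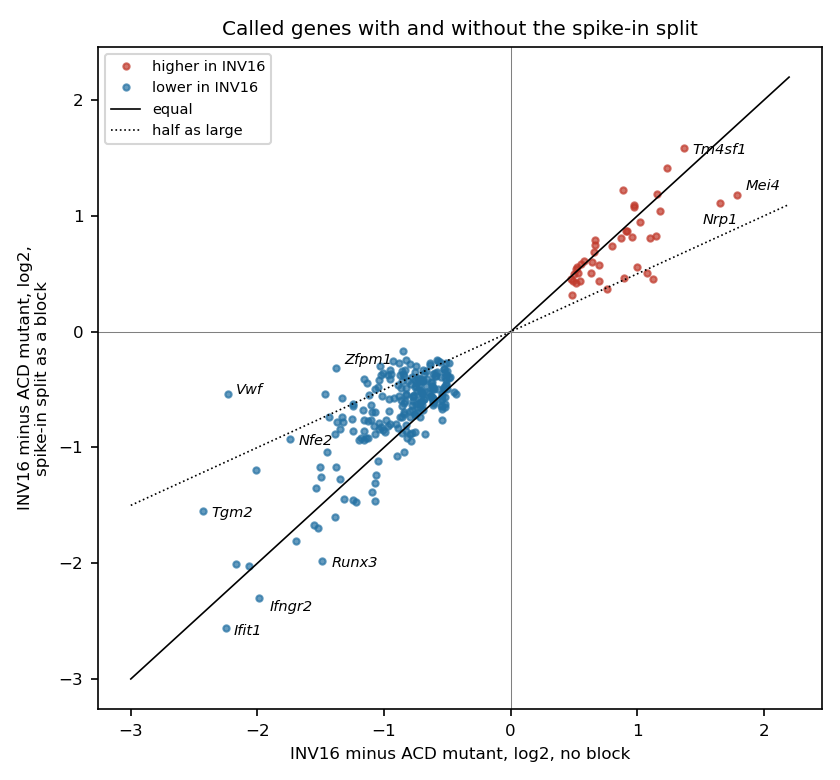
Log2 difference of INV16 replicates 1 to 3 minus the ACD mutant for the 267 called genes, without a block on the x axis and with the spike-in split as a block on the y axis. Each point is a gene, red for the 40 higher and blue for the 227 lower with the intact fusion, the solid line marks equal values and the dotted line values 50% as large. All points keep their sign, and Vwf and Zfpm1 lie far above the dotted line while Runx3, Ifngr2 and Ifit1 lie below the solid one.

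The parts and partners of core binding factor came first. Cbfb was bright and close to equal, at 12.39, 12.50 and 12.22 with INV16, 12.12 on each of the ACD mutant arrays, and 12.18 to 12.71 in MIB control. Its difference was 0.25 (95% interval -0.03 to 0.54, adjusted p = 0.322) and -0.02 blocked. Whether its mouse probe set measures the retroviral fusion was not tested. Neither Myh11 probe set passed the limit for low values, with group means of 3.73 to 4.45, and Runx2 was not analysed here. Runx1, the main blood RUNX factor, was at 9.59, 10.05 and 9.54 with INV16 and 10.53, 10.63 and 10.22 with the mutant. These groups did not overlap, but the MIB control arrays spread from 8.30 to 10.29, and the difference of -0.73 did not pass (adjusted p = 0.338, -0.08 blocked). Runx1 passed only with the replicate block (limma adjusted p = 0.0348) and with only the 6 arrays compared, and in no other setting run. Its other probe sets past the limit for low values, the only other probe sets given here and for later genes, differed by -0.48 to 0.03.

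Runx3 and Fut7 are printed here because the intact fusion and the mutant differed at these genes and a promoter of each holds RUNX core letters, and Ifit1 because it had the largest difference of the called interferon genes. The sequences are RefSeq promoters of build GRCm38.p6, from 250 bases before to 50 after the transcription start, on the strand of the gene. Runx3 lies at chr4:135120395-135120694 (+ strand), Fut7 at chr2:25422992-25423291 (+) and Ifit1 at chr19:34640639-34640938 (+). Capitals mark TGTGGT or TGCGGT on either strand in the first pair, and GAAA followed by any 2 bases and GAAA on either strand in the last.
Runx3: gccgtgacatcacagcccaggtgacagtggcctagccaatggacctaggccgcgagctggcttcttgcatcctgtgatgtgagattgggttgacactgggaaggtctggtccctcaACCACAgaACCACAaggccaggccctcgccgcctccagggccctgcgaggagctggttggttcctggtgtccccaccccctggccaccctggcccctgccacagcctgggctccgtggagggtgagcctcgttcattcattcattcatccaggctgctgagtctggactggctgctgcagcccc
Fut7: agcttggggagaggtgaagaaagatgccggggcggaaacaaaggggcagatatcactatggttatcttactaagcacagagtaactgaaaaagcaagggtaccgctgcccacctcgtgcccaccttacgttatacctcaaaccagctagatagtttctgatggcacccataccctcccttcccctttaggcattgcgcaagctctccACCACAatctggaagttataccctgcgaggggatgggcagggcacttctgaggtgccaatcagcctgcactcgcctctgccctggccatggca
Ifit1: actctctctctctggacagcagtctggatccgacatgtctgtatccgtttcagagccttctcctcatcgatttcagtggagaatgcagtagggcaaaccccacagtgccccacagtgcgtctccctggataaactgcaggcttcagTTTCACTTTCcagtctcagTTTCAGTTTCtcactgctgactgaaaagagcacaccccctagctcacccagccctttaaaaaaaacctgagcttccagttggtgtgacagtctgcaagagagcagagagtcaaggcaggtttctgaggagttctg
The Runx3 window holds 2 RUNX matches that begin 134 and 126 bases before the start, and the Fut7 window 1 that begins 43 bases before it. The table holds a second promoter for each, not printed, with 0 matches. The Ifit1 window holds 2 interferon-type matches, at 104 and 85 bases before the start. Of all 32851 promoters in the table, 22.4% hold the RUNX letters and 3.44% the interferon letters. By gene, the RUNX letters occur in a promoter of 24.8% of the 10448 tested genes that have one, of 12 of 32 genes called higher (37.5%) and of 54 of 179 called lower (30.2%) with the intact fusion. By promoter, they occur in 21.3% of the 13294 of tested genes, 31.6% of the 38 of genes called higher and 22.9% of the 240 of genes called lower. A gene with several promoters has more chances of a match in the shares by gene. A match is a description of letters and not a binding site.

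Runx3 carried the clearest difference of the RUNX genes. It was at 8.28, 8.36 and 8.97 on INV16 replicates 1 to 3, at 10.20, 9.96 and 9.93 on the ACD mutant arrays and at 9.68 to 10.59 in MIB control. All INV16 arrays lay below all others, and the mutant lay within the control range. INV16 replicate 4, at 8.86, lay with the other INV16 arrays. The difference was -1.49 ± 0.22 (SE), or 2.81-fold (adjusted p = 0.00611), and -1.98 blocked (adjusted p = 0.0656). The second probe set of Runx3 differed by -0.24 only. Against MIB control the difference was -1.65 for INV16 and -0.16 for the mutant, and within each side of the spike-in split the values were -1.85 for INV16 against MIB control 3 to 5 and 0.13 for the mutant against MIB control 6 and 7.

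Tle3, a Groucho-family corepressor, was at 7.90, 7.91 and 8.14 with INV16, at 9.14, 9.38 and 8.99 with the mutant and at 8.75 to 9.20 in MIB control. The groups did not overlap, but INV16 replicate 4 at 9.03 lay among the mutant arrays. The difference was -1.18 ± 0.14 (adjusted p = 0.00331), and -0.92 blocked (adjusted p = 0.157). Its other probe sets differed by -0.36 and -0.33, and with the mean of the probe sets in place of the brightest one the call was lost (-0.63, adjusted p = 0.0671). Of the 15 tested genes of the list of core binding factor, ETO and TLE partners, 2 were called, both lower (Runx3 and Tle3), and the list's median was -0.06 (-0.08 blocked). Over all genes 1.76% were called lower and 0.31% higher, the shares to set beside this and every later list count. Some genes, such as Runx3, Nfe2 and Irf8, are counted in several lists, so the lists are not separate results. Among those not called, Cbfa2t3, an ETO-family corepressor, differed by -0.58 (adjusted p = 0.16) and Tle1 by 0.53 (adjusted p = 0.19).

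Gse1, which encodes a protein of histone deacetylase corepressor complexes, was at 7.93, 7.62 and 7.59 with INV16 and at 8.86, 8.99 and 9.34 with the mutant, against 8.95 to 9.27 in MIB control. Only the INV16 arrays were low, replicate 4 among them at 7.19. The difference was -1.35 ± 0.14 (adjusted p = 0.00128), and -1.27 blocked (adjusted p = 0.0815). Its other probe sets differed by -1.08 and -0.06.

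**Figure D2:**
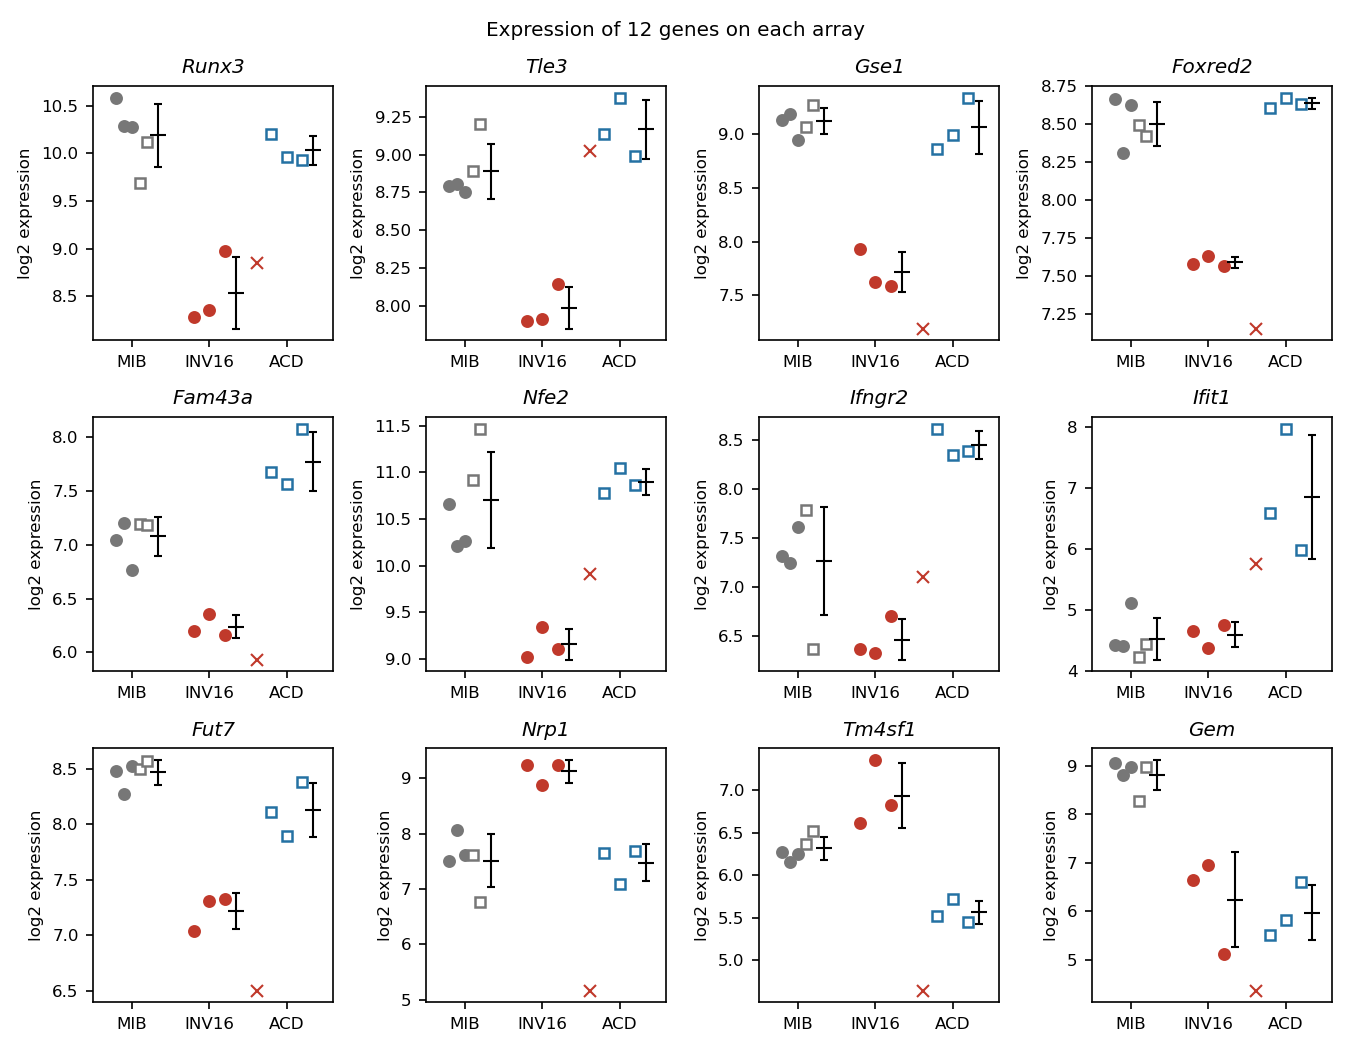
Log2 expression of 12 genes on each array for MIB control, INV16 and ACD mutant. Filled circles and open squares are arrays on either side of the spike-in split, the cross is INV16 replicate 4, and bars are the mean ± SD without it (n = 5, 3 and 3). Runx3, Tle3, Gse1, Foxred2, Fam43a, Nfe2 and Fut7 are low on INV16 replicates 1 to 3, Nrp1 and Tm4sf1 are high there, Ifit1 is high with the mutant, and Gem is low with both fusions.

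Gem, a small GTPase of the RGK family, gives a contrast to these genes. It was at 6.64, 6.95 and 5.13 with INV16, at 5.51, 5.82 and 6.60 with the mutant and at 8.27 to 9.05 in MIB control. Both fusions lay below all control arrays, with mean differences from MIB control of -2.57 for INV16 and -2.83 for the mutant, and they overlapped with each other. Their difference was 0.26 (95% interval -0.59 to 1.12, adjusted p = 0.771). Klf3, a Krüppel-like repressor, was higher than MIB control by 0.89 with INV16 and 0.23 with the mutant, and the difference of 0.66 missed the threshold (adjusted p = 0.0575, 0.53 blocked). Klf3 passed without MIB control 4 or 7 or INV16 3, with only the 6 arrays compared and with quantile scaling, and in no other setting run.

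Of the genes studied in CBFB-MYH11 leukaemia, 14 were tested and 2 were called, both lower (list median -0.52, -0.32 blocked, and -0.20 with no filter on low values). Mn1, a transcriptional coactivator gene overexpressed in this leukaemia, was at 5.42, 5.34 and 5.64 with INV16 and 6.21, 6.36 and 6.37 with the mutant. The mutant lay in the MIB control range of 6.14 to 6.68 and INV16 below it, with a difference of -0.84 ± 0.15 (adjusted p = 0.0156, -1.04 blocked). Mn1 lost the call without INV16 replicate 1 or 2 or ACD mutant replicate 2 or 3 (adjusted p 0.0527 to 0.0783). Plagl2, a zinc finger factor that cooperates with the fusion in mice, was at 8.10 to 8.23 with INV16 and 8.80 to 9.14 with the mutant, a difference of -0.78 (adjusted p = 0.0202, -0.39 blocked). It lost the call without the same 4 arrays (0.0632 to 0.0783) and with the mean of its probe sets (-0.38, adjusted p = 0.133). Cebpa, a granulocyte factor, differed by -0.91 without passing (adjusted p = 0.06).

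The blood lineage genes made up the largest block of named genes. In these bulk samples, fewer cells of a type and less RNA per cell cannot be told apart. Nfe2, the haematopoietic subunit of the NF-E2 factor of platelet and red cell formation, was at 9.02, 9.34 and 9.10 with INV16, at 10.78, 11.05 and 10.87 with the mutant and at 10.21 to 11.47 in MIB control. INV16 was below all others, replicate 4 included at 9.91. The difference was -1.74 ± 0.26, or 3.34-fold (adjusted p = 0.00721), and -0.93 blocked (adjusted p = 0.264). The call held without each of the 11 arrays in turn.

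Vwf, the clotting factor of platelets, was at 5.13, 4.73 and 5.68 with INV16 and at 7.21, 7.89 and 7.13 with the mutant. MIB control ran from 5.08 to 7.74, with replicates 6 and 7 at 6.37 and 7.74 and the others at 5.58 and below. The difference of -2.23 ± 0.53 (adjusted p = 0.0485) became -0.54 blocked (adjusted p = 0.71), and the call was lost without MIB control 6 or any of the 6 INV16 and ACD mutant arrays (0.0539 to 0.201). Quantile scaling, no filter, the mean of probe sets and the trend and robust options also ended it (0.0507 to 0.0575). All 19 tested megakaryocyte genes had differences below 0, against 7010 of all 12918 genes, and 2 were called lower (Nfe2 and Vwf, 10.5% against 1.76% of all genes), with a median of -0.82 and -0.22 blocked. Pf4, platelet factor 4, differed by -1.81 (adjusted p = 0.094, -0.52 blocked) and Itga2b, an integrin of platelets, by -1.01 (adjusted p = 0.099, -0.14 blocked). The mean of the list against its MIB control mean was -0.31, -0.26 and -0.40 on the INV16 arrays and 0.45, 0.72 and 0.56 with the mutant. MIB control 7 was at 0.89, above all of these, and the other controls at -0.36 to -0.04.

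Among 14 erythroid genes 3 were called, all lower (21.4%, against 1.76% of all genes), with a median of -0.52, -0.09 blocked and -0.28 with no filter. Besides Nfe2 the called genes were Tfr2, transferrin receptor 2 of the erythropoietin receptor complex, and Zfpm1, the GATA1 cofactor FOG1. Tfr2 was at 8.50, 7.90 and 9.45 with INV16, 9.88, 10.24 and 9.86 with the mutant and 10.04 to 10.51 in MIB control, with INV16 low alone. Its difference was -1.38 ± 0.29 (adjusted p = 0.0302, -1.17 blocked), -0.68 at its other probe set. Zfpm1 was at 7.30, 6.94 and 7.01 against 8.42, 8.45 and 8.53, and MIB control 7 at 8.69 was above both. Its difference of -1.38 ± 0.32 (adjusted p = 0.0433) was -0.31 blocked. Tfr2 lost the call without INV16 1 or 2 or any ACD mutant array (0.0638 to 0.148), and Zfpm1 without any of the 6 (0.0886 to 0.162). With the mean of probe sets both calls were lost (0.0526 and 0.214), and Zfpm1 also lost it with quantile scaling or no filter (0.0507 and 0.0508). Gata1, the erythroid master factor, differed by -1.41 (adjusted p = 0.094, -0.09 blocked).

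**Figure D3:**
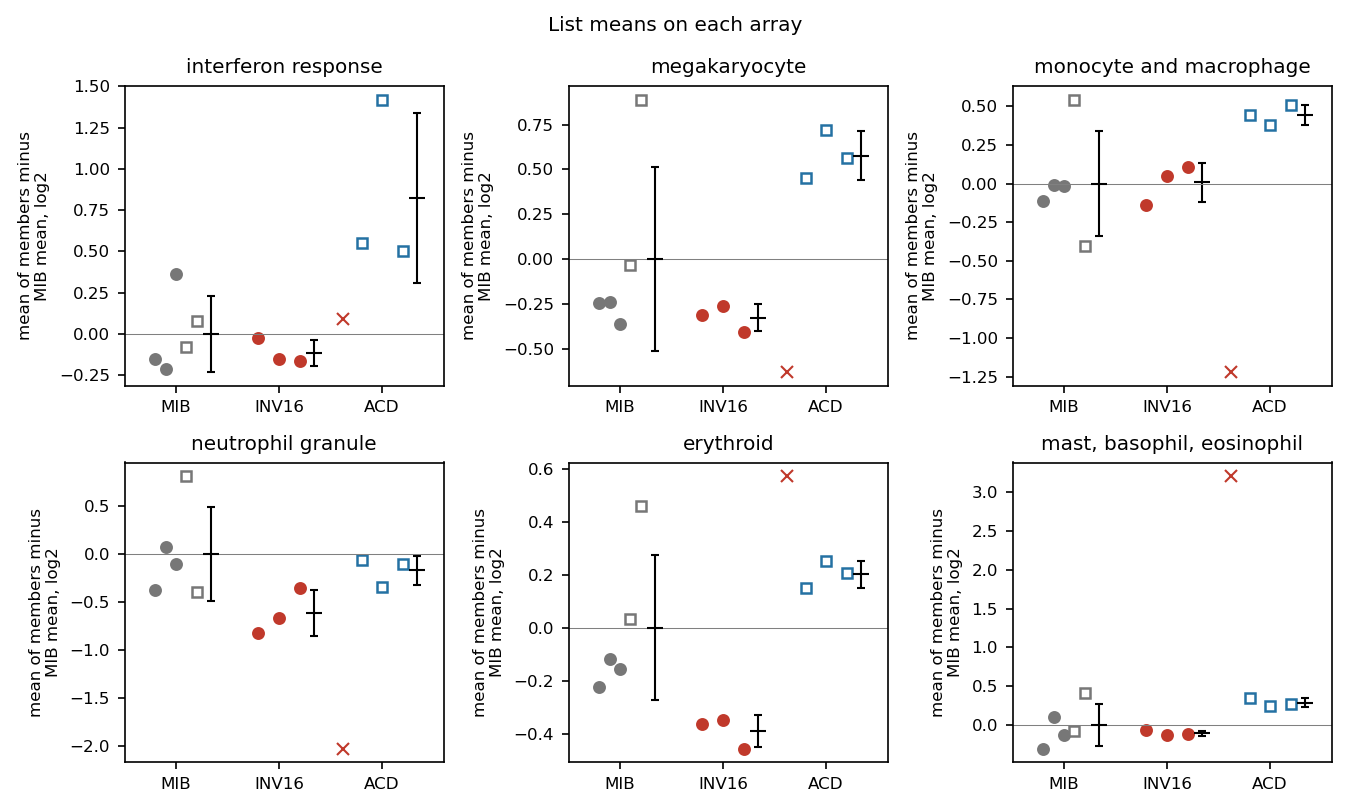
Mean of the members of 6 gene lists on each array, in log2 units relative to the MIB control mean, with the same symbols as in the plot of single genes. The interferon list is at 0.50 to 1.42 with the mutant and at -0.17 to -0.02 with INV16, and the megakaryocyte list of MIB control 7, at 0.89, lies above the mutant arrays.

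Median differences of the myeloid lists also lay below 0. Of 22 monocyte and macrophage genes, 2 were called lower (Irf8 and Lyz1) and 1 higher (Dab2), 13.6% against 2.07% of all genes. The list had a median of -0.46, and -0.41 blocked. Irf8, a factor of monocytes and dendritic cells, was at 6.80, 7.08 and 6.44 with INV16 and at 8.29, 8.04 and 8.49 with the mutant, against 7.12 to 8.62 in MIB control. The fusions did not overlap, but MIB control 7 lay close to INV16 and MIB control 6 above the mutant. The difference was -1.50 ± 0.30 (adjusted p = 0.0259, -1.17 blocked), and -0.96 at its other probe set. Lyz1, a lysozyme, was at 11.26 to 11.94 with INV16 and 12.82 to 13.10 with the mutant, a difference of -1.33 (adjusted p = 0.0304, -0.74 blocked). Irf8 lost the call without any of the 6 arrays of these groups (0.0597 to 0.0918) or with the mean of its probe sets (0.056), and Lyz1 without INV16 1 or 2 or any ACD mutant array (0.0702 to 0.135). Dab2, an endocytic adaptor, was higher at 7.71, 8.41 and 7.61 with INV16 against 7.01, 6.38 and 6.88, by 1.15 (adjusted p = 0.0347, 1.19 blocked), with 0.15 at its other probe set. It lost the call without MIB control 5, INV16 1 or 2 or any ACD mutant array (0.0506 to 0.167), or with the mean of its probe sets (0.65, adjusted p = 0.0533).

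Of 18 genes in the neutrophil granule list only Fut7, a fucosyltransferase gene, was called, with a list median of -0.25, 0.00 blocked and -0.46 with the filter at the 60th percentile. Among 13 dendritic cell genes Irf8 and H2-Aa were called, both lower, and the median of -0.04 turned to 0.12 blocked and 0.38 with the filter at the 60th percentile. H2-Aa, a class II MHC chain, was at 5.25, 5.23 and 5.69 with INV16 and 6.72, 6.82 and 7.03 with the mutant, by -1.46 (adjusted p = 0.0277, -0.54 blocked). It lost the call without INV16 1 or 2 or any ACD mutant array (0.0746 to 0.108).

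Of 12 mast cell, basophil and eosinophil genes, 3 were called lower (25%, against 1.76% of all genes), with a median of -0.06 and -0.12 blocked. The median was -0.60 with the filter taken from the 11 arrays, -0.71 with the filter at the 60th percentile and 0.15 with INV16 replicate 4 included, the array on which these genes averaged 3.21 above MIB control. Ms4a2, the beta chain of the IgE receptor, was at 8.44, 8.37 and 8.31 with INV16 and 10.61, 10.44 and 10.11 with the mutant, and MIB control 7 reached 10.34. The difference was -2.01 ± 0.45 (adjusted p = 0.0418, -1.20 blocked). Cpa3, mast cell carboxypeptidase, was at 10.06, 9.81 and 9.31 against 11.38, 11.09 and 11.05 (difference -1.45, adjusted p = 0.0379, -1.04 blocked). Rab44, a large Rab GTPase of mast cells, was at 7.50, 7.60 and 7.92 against 8.25, 8.27 and 8.28 (difference -0.60, adjusted p = 0.0356, -0.36 blocked). Ms4a2 and Cpa3 lost the call without MIB control 5 or any of the 6 arrays compared (0.0506 to 0.162), and Rab44 without INV16 1 or 2 or any ACD mutant array (0.0818 to 0.135). Quantile scaling ended the calls of Ms4a2 (0.0523) and Rab44 (0.0784), and the replicate block that of Rab44 (0.0628). INV16 replicate 4 lay far above all other arrays for all 3, at 13.67 for Ms4a2, 14.27 for Cpa3 and 10.93 for Rab44.

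The interferon response was the list with the most calls. All 23 tested members had differences below 0, against 7010 of all 12918 genes, and 7 were called lower with the intact fusion (30.4%, against 1.76% of all genes). The list had a median of -0.72 and -0.71 blocked, against -0.02 and -0.01 over all genes, and every list member named on the array was tested. Ifit1, an RNA-binding antiviral protein, was at 4.66, 4.37 and 4.77 with INV16, below the limit for low values of 5.10, and at 6.60, 7.97 and 5.98 with the mutant. MIB control ran from 4.24 to 5.11, so the mutant arrays alone were high, by 2.33 on average against 0.07 for INV16. The difference was -2.25 ± 0.38 (adjusted p = 0.0118), and -2.56 blocked (adjusted p = 0.187). Ifit1 and Oas3, both counted in the 7, were the 2 called genes that passed the limit through the mutant alone. Their differences rest on dim values in INV16 and MIB control, and their calls add no support to the count. INV16 replicate 4 was at 5.76.

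Usp18, a protease that removes the interferon-induced modifier ISG15, was at 5.14, 5.23 and 5.33 with INV16 and 6.99, 8.29 and 6.93 with the mutant, and MIB control ran from 5.65 to 7.27, overlapping the mutant. The difference was -2.17 ± 0.40 (adjusted p = 0.0202, -2.01 blocked). Oasl2, a 2'-5' oligoadenylate synthetase-like protein, was at 6.62, 6.23 and 5.74 against 7.82, 9.21 and 7.77, a difference of -2.07 ± 0.38 (adjusted p = 0.0193, -2.03 blocked). Cmpk2, a mitochondrial nucleotide kinase, was at 5.65 to 5.84 against 6.52 to 7.65, a difference of -1.24 (adjusted p = 0.0302, -1.45 blocked). The other called members were Irf9, a subunit of the interferon-activated factor ISGF3 (-1.16), Parp14 (-0.99) and Oas3 (-0.72). Ifit1 lost the call without INV16 2 (adjusted p = 0.0596), Oasl2 without INV16 2 or ACD mutant 2 (0.068 and 0.0671), Usp18 without INV16 1 or 2 or ACD mutant 2 (0.0728 to 0.0891) and Cmpk2 without any INV16 array or ACD mutant 2 or 3 (0.0527 to 0.102).

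ACD mutant replicate 2 was the highest array for each of Ifit1, Usp18, Oasl2 and Cmpk2. The mean of the 23 genes against MIB control was 0.55, 1.42 and 0.50 on the mutant arrays, -0.02, -0.15 and -0.17 with INV16, 0.09 on INV16 replicate 4 and -0.21 to 0.37 in MIB control. Without ACD mutant replicate 2 the median difference was -0.50. Stat2 (0.06) and Bst2 (0.29) turned positive when blocked. Of 19 interferon genes with a promoter in the table, 11 (57.9%) hold the interferon letters printed for Ifit1, against 3.53% of the tested genes with a promoter, and 2 of the 5 called ones with a promoter do.

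Ifngr2 and Rnf213, near the interferon pathway but outside that list, were named after their values were seen, for small p-values with the spike-in block. Other such genes were not looked at. Ifngr2, a chain of the interferon gamma receptor, was at 6.36, 6.32 and 6.70 with INV16 and 8.61, 8.35 and 8.38 with the mutant. MIB control spread from 6.36 to 7.78 and lay between them except for replicate 7. The difference was -1.99 ± 0.28, or 3.96-fold (adjusted p = 0.00567), -2.30 blocked (adjusted p = 0.102), and -0.57 at its other probe set. Rnf213, a large ubiquitin ligase, was at 8.92, 8.97 and 9.09 against 10.09, 10.82 and 10.03, a difference of -1.32 (adjusted p = 0.00567, -1.45 blocked), and -0.14 at its other probe set. Both calls held without each array in turn.

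**Figure D4:**
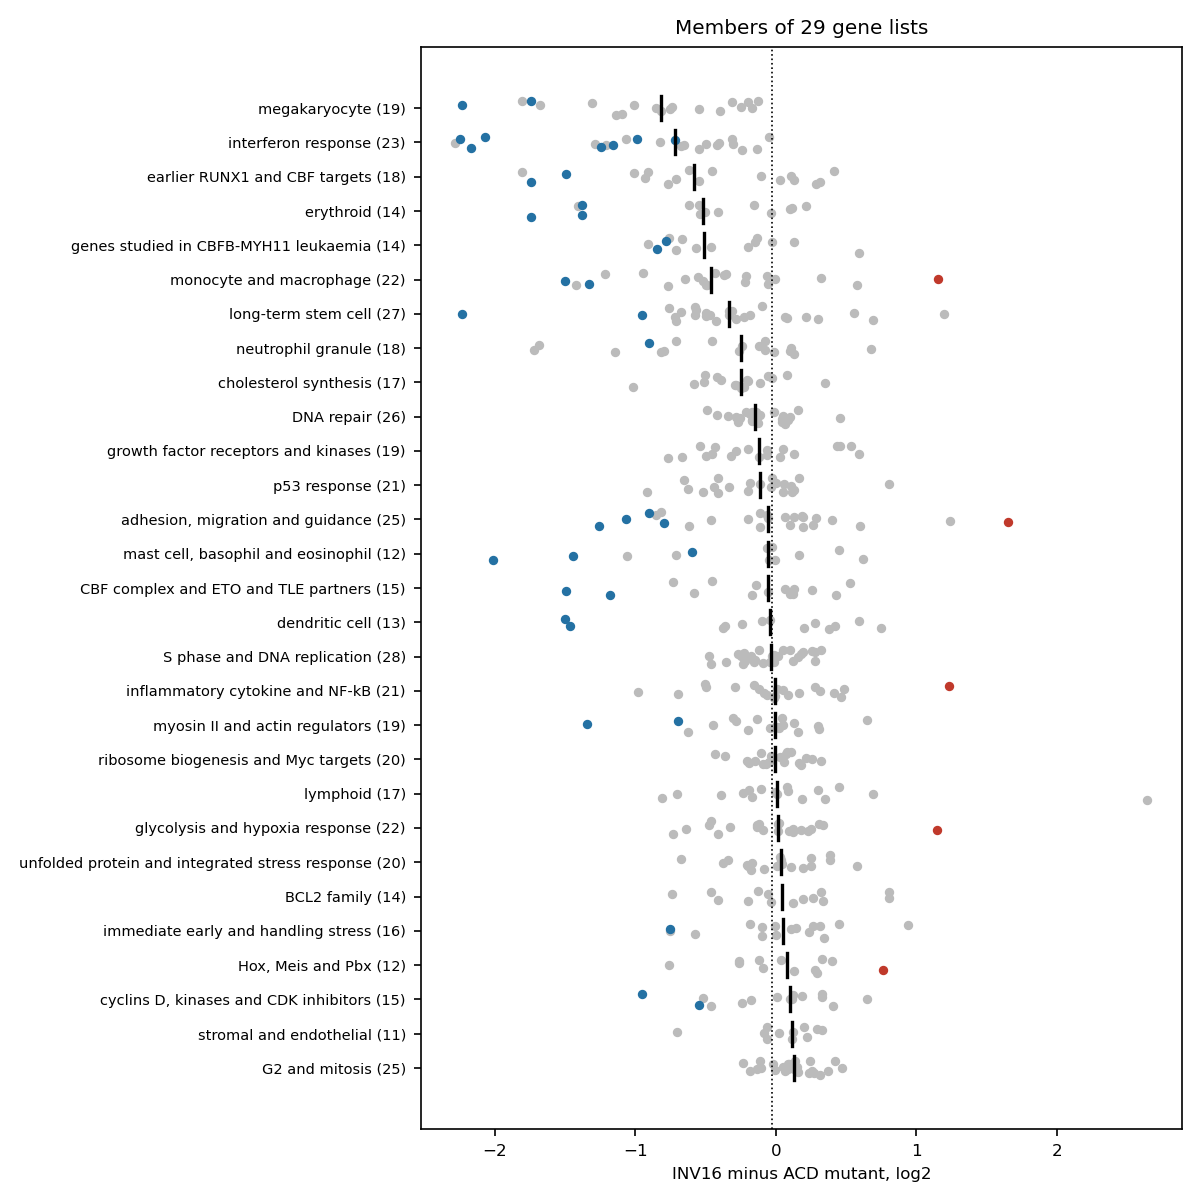
Log2 difference of INV16 replicates 1 to 3 minus the ACD mutant for every tested member of 29 gene lists, with the number of members in brackets. Blue points were called lower and red points higher, grey points were not called, thick bars are list medians and the dotted line is the median of all genes tested, -0.02. The megakaryocyte (-0.82) and interferon (-0.72) lists have all their members below 0, and the grey point at the far right is Dntt.

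Genes of adhesion and guidance moved both ways, 1 higher and 4 lower of 25 (20%, against 2.07% of all genes), with a median of -0.06 (-0.05 blocked). Nrp1 was at 9.25, 8.88 and 9.25 with INV16, at 7.65, 7.09 and 7.69 with the mutant and at 6.76 to 8.07 in MIB control. The INV16 arrays were above all others except that INV16 replicate 4, at 5.16, was the lowest of the series. The difference was 1.65 ± 0.27, or 3.14-fold (adjusted p = 0.0101), and 1.11 blocked (adjusted p = 0.306), and 3 other probe sets differed by 0.74 to 1.84. Nrp1 lost the call without ACD mutant 2 (adjusted p = 0.0646). Vegfc, a VEGF-family growth factor of the same list, differed by 1.24 without passing (adjusted p = 0.051, 1.36 blocked).

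Fut7, the fucosyltransferase that completes selectin ligands, was at 7.04, 7.31 and 7.33 with INV16, at 8.11, 7.89 and 8.38 with the mutant and at 8.28 to 8.57 in MIB control. All INV16 arrays lay below all others, replicate 4 included at 6.50, and the difference was -0.90 ± 0.14 (adjusted p = 0.00929, -0.80 blocked). Selplg, the P-selectin ligand that such fucose modifies, was at 9.97, 10.13 and 10.50 against 11.26, 11.19 and 11.35 (difference -1.07, adjusted p = 0.0197, -0.49 blocked). Fut8, which adds core fucose to N-glycans, was at 10.74, 10.64 and 11.19 against 11.79, 11.98 and 11.97, and the mutant matched the MIB control range of 11.79 to 12.08. Its difference was -1.06 ± 0.14 (adjusted p = 0.00567, -1.24 blocked), with -0.62 and 0.23 at other probe sets. Fut7 and Fut8 kept the call without each array, but Fut8 lost it with the mean of its probe sets (-0.48, adjusted p = 0.0617), and Selplg lost it without INV16 1 or 2 or any ACD mutant array (0.0622 to 0.078).

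Plxnc1, a semaphorin receptor, was at 9.18, 8.56 and 9.22 with INV16 against 9.98, 10.68 and 10.06 (difference -1.26, adjusted p = 0.0319, -0.75 blocked), with -1.96 to -0.99 at its other probe sets. S1pr3, a sphingosine 1-phosphate receptor, differed from MIB control by -1.63 with INV16 and -0.83 with the mutant. Its arrays were 6.65, 6.75 and 6.39 against 7.49, 7.15 and 7.54 (difference -0.80, adjusted p = 0.0433, -0.74 blocked), and its other probe set differed by 0.02. Plxnc1 lost the call without INV16 1 or 2 or any ACD mutant array (0.0638 to 0.16), and S1pr3 without MIB control 5 or any of the 6 (0.0627 to 0.141), with quantile scaling (0.0554) or with the mean of its probe sets (-0.39, adjusted p = 0.197).

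Among the genes higher with the intact fusion, Tm4sf1 was at 6.62, 7.36 and 6.82 with INV16, at 5.52, 5.72 and 5.45 with the mutant and at 6.16 to 6.52 in MIB control. The control lay between the fusions, and INV16 replicate 4 at 4.64 was below both. The difference was 1.37 ± 0.17 (adjusted p = 0.00353) and 1.59 blocked (adjusted p = 0.0656), and the call held without each array. Il6, the cytokine also added to the medium as protein, was at 6.90, 6.78 and 6.55 against 5.10, 5.84 and 5.58, with MIB control at 4.79 to 5.61 and INV16 replicate 4 at 10.20. Its difference was 1.23 ± 0.23 (adjusted p = 0.0199, 1.42 blocked), and it was the 1 called gene of 21 in the inflammatory list, whose median was -0.01 (0.13 blocked). Il6 lost the call without INV16 1 or 2 or ACD mutant 1 or 3 (0.0503 to 0.0796).

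Mei4, a gene of meiotic recombination, was at 7.65, 7.58 and 6.73 with INV16 and 5.64, 4.86 and 6.09 with the mutant (difference 1.79 ± 0.37, adjusted p = 0.0302, 1.19 blocked). Dennd5b, a Rab exchange factor, was at 7.41, 7.48 and 6.68 against 6.07, 5.69 and 6.28 (difference 1.18, adjusted p = 0.0242, 1.04 blocked), with 0.07 at its other probe set. Hoxa7, a homeobox gene, was at 8.56, 8.72 and 8.25 against 7.67, 7.58 and 8.0 (difference 0.76, adjusted p = 0.0423, 0.37 blocked), the 1 called of 12 Hox, Meis and Pbx genes (median 0.08, and 0.12 blocked). Mei4 and Dennd5b lost the call without INV16 1 or 2 or ACD mutant 1 or 2 (0.0789 to 0.147), and Hoxa7 without those, MIB control 5 or ACD mutant 3 (0.0511 to 0.186), with the replicate block (0.0628) or with median scaling (0.0532).

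For Ndrg1 and Raly the mutant was the group that differed more from MIB control. Ndrg1, a gene induced by low oxygen and in differentiation, was at 10.80 ± 0.19 (SD, n = 3) with INV16, 9.95, 9.62 and 9.41 with the mutant and 10.59 to 11.30 in MIB control. The mutant was below all other arrays but INV16 replicate 4 (5.50), and the difference was 1.15 ± 0.19 (adjusted p = 0.0118, 0.83 blocked), with 1.06 to 1.78 at its other probe sets. It was the 1 called of 22 glycolysis and hypoxia genes (median 0.02). Raly, an RNA-binding protein, was at 9.41, 10.03 and 9.71 against 8.76, 8.80 and 8.93 (difference 0.89, adjusted p = 0.0202, 1.23 blocked). Ndrg1 lost the call without INV16 2 or ACD mutant 2 (0.0608 and 0.0671), and Raly without those or ACD mutant 1 (0.0834 to 0.095).

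Growth control genes showed few calls. Cdkn1c, a CDK inhibitor of quiescent stem cells, was at 6.44, 6.51 and 6.52 with INV16 and at 7.44, 7.38 and 7.48 with the mutant, and MIB control ran from 6.29 to 7.36. Its difference was -0.95 (adjusted p = 0.0397, -0.33 blocked). Rb1, the retinoblastoma protein, was at 9.09, 9.01 and 8.81 against 9.52, 9.60 and 9.42 (difference -0.55, adjusted p = 0.0415, -0.76 blocked). Both lost the call without MIB control 5 or any of the 6 arrays compared (0.0502 to 0.174), and Rb1 also with the replicate block (0.067) or quantile scaling (0.0628). None of the 28 genes of S phase, 25 of G2 and mitosis, 26 of DNA repair, 21 of the p53 response or 20 of ribosome biogenesis was called by limma, with list medians of -0.04, 0.13, -0.15, -0.11 and 0.00 (-0.11, 0.03, -0.17, -0.14 and 0.02 blocked). Jund, an AP-1 factor, was the 1 called of 16 immediate early genes, at 9.20, 9.27 and 9.43 against 10.06, 10.20 and 9.91 (difference -0.76, adjusted p = 0.0262, -0.34 blocked), and it lost the call without INV16 1 or 2 or ACD mutant 1 or 2 (0.0918 to 0.134) or with the mean of its probe sets (-0.40, adjusted p = 0.115).

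Of 19 genes in the list of myosin II and actin regulators, which also holds the tubulin gene Tuba8, 2 were called lower, with a median of 0.00. Tuba8, an alpha tubulin, was at 8.12, 7.75 and 8.84 with INV16, 9.36, 9.75 and 9.63 with the mutant and 9.28 to 10.21 in MIB control (difference -1.34, adjusted p = 0.0242, -0.84 blocked), with -1.73 at its other probe set. Vcl, the focal adhesion protein vinculin, was at 9.53, 9.59 and 9.55 against 10.19, 10.46 and 10.11 (difference -0.70, adjusted p = 0.0433, -0.52 blocked). Tuba8 lost the call without INV16 1 or 2 or any ACD mutant array (0.0608 to 0.117), and Vcl without MIB control 5 or 6 or any of the 6 (0.0503 to 0.194) or with quantile scaling (0.068).

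Tgm2, tissue transglutaminase, had the largest difference of all called genes. It was at 7.33, 6.65 and 8.19 with INV16, at 9.19, 10.86 and 9.40 with the mutant and at 8.41 to 9.65 in MIB control. INV16 replicates 1 to 3 were below all others, while INV16 replicate 4 at 11.29 was the highest. The difference was -2.43 ± 0.46, or 5.38-fold (adjusted p = 0.0202), and -1.55 blocked (adjusted p = 0.378), with -2.55 to -0.11 at 4 other probe sets. It lost the call without INV16 1 or 2 or ACD mutant 2 (0.0743 to 0.0899).

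A further set was named, after the values were seen, for small p-values with the spike-in block. Foxred2, an oxidoreductase of the endoplasmic reticulum, was at 7.58, 7.63 and 7.57 with INV16, 8.60, 8.68 and 8.63 with the mutant and 8.31 to 8.67 in MIB control, so the replicates lay close together within each fusion. Its difference was -1.05 ± 0.11 (adjusted p = 0.00128, -1.12 and adjusted p = 0.0656 blocked). Fam43a was at 6.20, 6.36 and 6.16 against 7.68, 7.56 and 8.08, with MIB control between at 6.77 to 7.20 (difference -1.53 ± 0.15, adjusted p = 0.00128, -1.35 blocked). Mapkapk3, a kinase downstream of p38, was at 10.95, 11.12 and 11.57 against 12.77, 12.63 and 12.73 (difference -1.49 ± 0.16, adjusted p = 0.00128, -1.25 blocked). Btnl9, a butyrophilin-like membrane protein, was at 7.46, 6.76 and 7.58 against 8.62, 8.70 and 8.65 (difference -1.39 ± 0.19, adjusted p = 0.00567, -1.60 blocked). These 4 calls held without each array in turn. Atf7, a CREB-family factor, was at 6.10, 6.12 and 6.25 against 7.01, 7.52 and 7.16, with MIB control at 5.65 to 6.26, so the mutant was high (difference -1.07, adjusted p = 0.00958, -1.30 blocked). It lost the call without ACD mutant 2 (adjusted p = 0.06) or with the mean of its probe sets (-0.43, adjusted p = 0.0921), and its other probe set differed by 0.20.

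Of 18 genes named earlier as RUNX1 or core binding factor targets, 2 were called lower (Runx3 and Nfe2), with a median of -0.58 that became -0.04 blocked. Of 27 long-term stem cell genes 2 were called lower (Cdkn1c and Vwf), with medians of -0.33 and -0.08 blocked, and of 15 cyclins, kinases and CDK inhibitors 2 (Cdkn1c and Rb1), with a median of 0.10 that turned to -0.18 blocked. None was called by limma among 19 growth factor receptors and kinases (median -0.12, turning to 0.09 blocked), 17 genes of cholesterol synthesis (-0.25, and 0.24 blocked), 20 of the unfolded protein and integrated stress responses (0.03, and 0.10 blocked) or 14 of the BCL2 family (0.04, and 0.12 blocked). Stromal and endothelial genes, markers of cells the sort should lack, had 0 of 11 called and a median of 0.12 (0.04 blocked).

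The MIB control mean joins arrays from both sides of the spike-in split. A difference between the sides could also place this mean between the fusions, and the counts here cannot tell these apart. Genes called for a large difference between the fusions also favour a mean in between, and the shares over all genes were not counted. The mean lay between the fusions for 226 of the 267 called genes. It was nearer the mutant for 155 (26 of the 40 higher and 129 of the 227 lower) and nearer INV16 for 112. Runx3, Gse1, Btnl9, Fut8, Mn1 and Foxred2 are examples of the first kind, with the mutant within 0.16 of MIB control and INV16 at -1.65 to -0.82 against it. Ifit1, Oasl2 and Atf7 are examples of the second, with the mutant 1.18 to 2.33 above MIB control and INV16 within 0.11 of it. All 267 called genes had groups that did not overlap, against 28.6% of all genes tested. The calls were made on these same arrays and favour such groups, so this is no further support. INV16 replicate 4 lay on the INV16 side of the midpoint between the fusions for 137 of the 267, 14 of the 40 higher and 123 of the 227 lower. The share over all genes was not counted for this either.

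**Figure D5:**
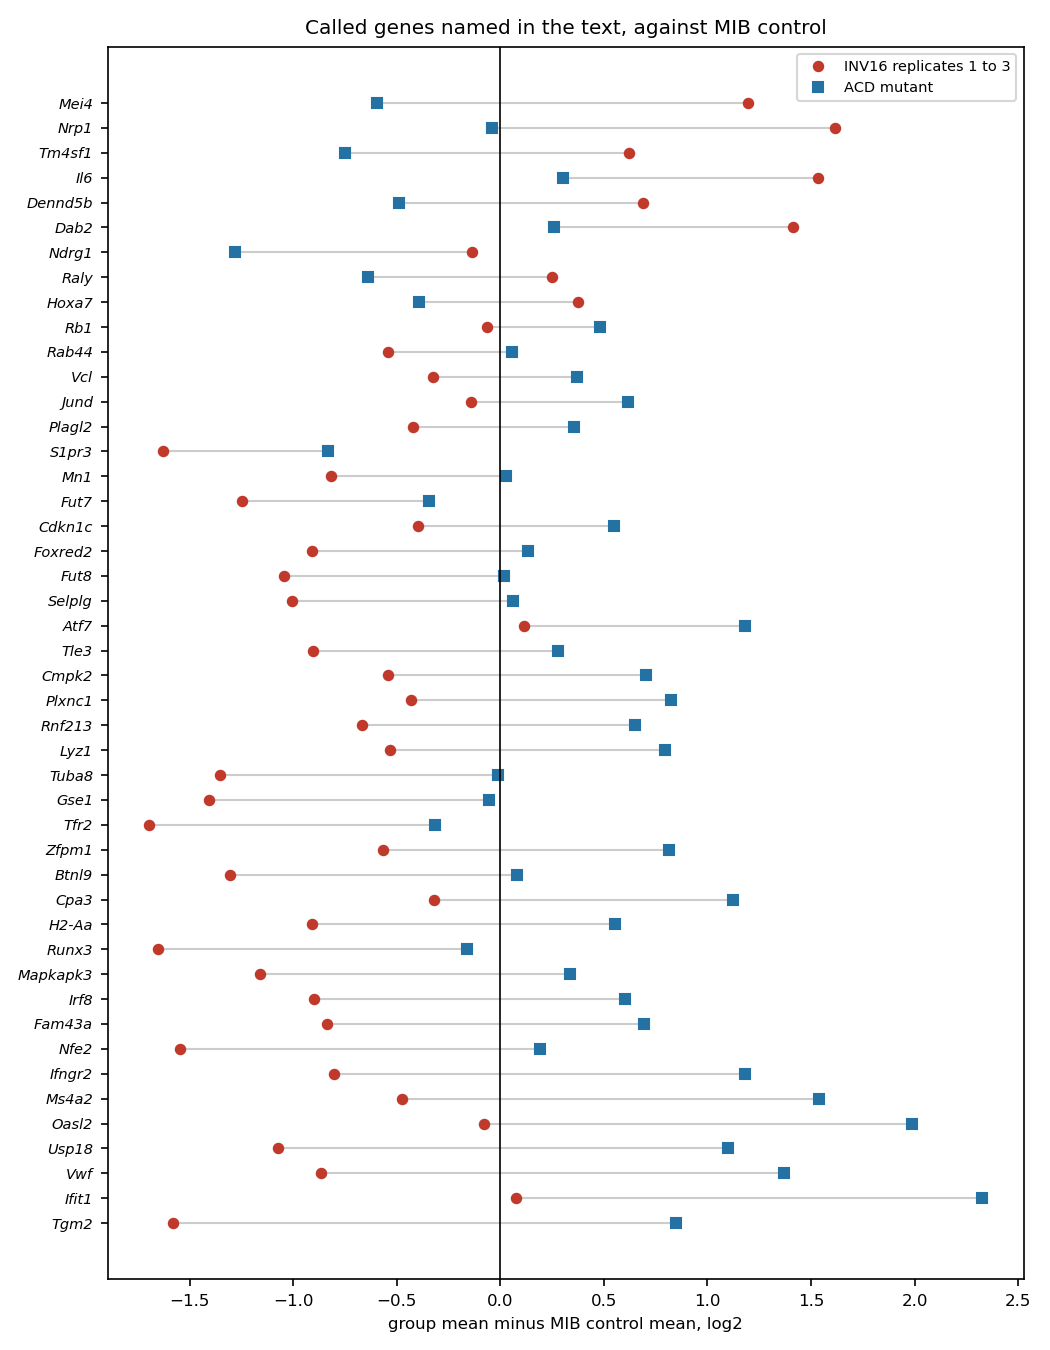
Mean of INV16 replicates 1 to 3 (red circles) and of the ACD mutant (blue squares) minus the MIB control mean, in log2 units, for the 46 called genes named in the text, ordered by the difference between the fusions. A grey line joins both values of a gene. Runx3, Gse1 and Btnl9 have the mutant near 0, Ifit1 and Oasl2 have INV16 near 0, and Ndrg1 and S1pr3 have both fusions below it.

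The call held in all 11 fits that left out 1 array each for 30 of the 267 genes, 3 higher (Tm4sf1, Ptcd1 and Tnfsf13os) and 27 lower with the intact fusion. Besides those described, the lower ones included Plec, the cytoskeletal linker plectin (-1.37), the adiponectin receptor Adipor2 (-1.16), Siglecf, a sialic acid receptor of eosinophils (-1.04), the kinase Prkd2 (-0.98) and the mechanosensitive channel Piezo1 (-0.88). Lymphoid genes had a median of 0.01 (-0.01 blocked), and 0 of 17 were called by limma. Their member Dntt, the lymphoid terminal transferase, named after its values were seen, was at 11.09, 10.81 and 7.75 with INV16 and at 7.82, 6.62 and 7.27 with the mutant. INV16 replicates 1 and 2 alone were high, and the difference of 2.64 ± 0.66 did not pass (adjusted p = 0.057).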

How the data were processed

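RNA of 12 samples was measured on 1 Affymetrix array each. The deposited table gives 45101 probe sets as log2 values. The log base was read from their range, 2.82 to 14.97, and the authors' background correction, normalisation and summarisation are not given in the sources used here. They hold no background estimate, and how far differences of dim genes are compressed is not known. Array medians were 5.62 to 5.79, and the values were used as deposited. Gene symbols came from the platform's annotation, and 932 probe sets with several symbols, 9211 with none and 64 controls were left out. Each gene was read from its brightest probe set with a mean above the 40th percentile (5.10), which left 12918 genes.

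A limma model (version 3.58.1, R version 4.3.3) gave a mean to each of 3 groups over 11 arrays, with INV16 replicate 4 left out (8 residual and 5.04 prior degrees of freedom). Tests were two-sided, with Benjamini-Hochberg adjustment over all genes. The model was run on simulated data with independent noise and shifts added to INV16 only. The simulated data held no difference between the sides of the spike-in split, so they do not bear on that split. Alternatives were the spike-in split or the replicate number as a block, only the 6 arrays, all 12 arrays, quantile and median scaling, other filters, the mean of all probe sets, eBayes with trend and robust options, and each array left out. Leaving out arrays with the spike-in block was added after seeing the data.

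Named genes are the 6 largest called differences each way, up to 4 called members of each of 29 lists (589 symbols, 494 tested), 18 genes fixed by name, and 12 called genes with small blocked p-values. Members, lists and genes were chosen with earlier results of these data known, so they are no independent support. Promoters came from RefSeq, and the interferon letters were chosen after seeing values.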

Additional observations from a re-analysis of the deposited data

Results flagged for a closer look

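Single arrays stood apart from their group by Dixon's 95% criterion for 18 values among the 53 genes named, 14 of 53 in INV16 (4 arrays with replicate 4) and 4 of 53 in MIB control (5 arrays). Chance gives about 1 in 20 independent groups, but these counts cannot be set against that rate. Of the 53 genes, 46 were called in the model that left out INV16 replicate 4. Such calls favour genes whose other INV16 arrays lie close together, which raises the Dixon ratio of replicate 4. Genes measured on the same arrays are also not independent groups. All 14 INV16 values belong to INV16 replicate 4, the array with the highest 3' to 5' Gapdh log2 ratio, 3.64. Whether that ratio bears on these values was not tested.

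INV16 replicate 4 was above the other INV16 arrays for 9 of these genes. It was at 13.67 for Ms4a2 (the others 8.31 to 8.44), 14.27 for Cpa3 (9.31 to 10.06), 10.93 for Rab44 (7.50 to 7.92), 12.42 for Jund (9.20 to 9.43), 12.3 for Vcl (9.53 to 9.59) and 11.08 for Rb1 (8.81 to 9.09). It was also at 10.2 for Il6 (6.55 to 6.90), 8.831 for S1pr3 (6.39 to 6.75) and 6.489 for Usp18 (5.14 to 5.33). The genes of mast cells, Ms4a2 and Cpa3, had the highest values among them.

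It was below the others for the remaining 5. It was at 5.158 for Nrp1 (8.88 to 9.25), 5.502 for Ndrg1 (mean of the others 10.80), 7.563 for Lyz1 (11.26 to 11.94), 5.665 for Cdkn1c (6.44 to 6.52) and 7.153 for Foxred2 (7.57 to 7.63). The 12-array values of these genes are therefore not those of INV16 replicates 1 to 3.

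In MIB control, replicate 5 was high for Ifit1 at 5.114 (the others 4.24 to 4.44), and replicate 3 was high for Mn1 at 6.685 (6.14 to 6.27) and for Flt3 at 9.34 (8.34 to 8.57). Replicate 7 was low for Mei4 at 5.156 (6.23 to 6.59).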

How the results depend on the processing

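The count of 267 called genes became 0 with the spike-in split as a block, 840 with only the 6 arrays, 5 with INV16 replicate 4 included (Fam43a, Foxred2, Gse1, Piezo1 and Prkd2) and 173 with the mean of all probe sets. It was 36 to 505 without single arrays and 208 to 380 under the other settings run. With only the 6 arrays 139 genes were higher and 701 lower. Quantile scaling gave 51 higher and 157 lower and median scaling 34 and 310, while no scaling moved the median of all genes by over 0.1. The causes were not tested.

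Same-numbered arrays of the fusions deviated from their group means with correlations of -0.16, -0.18 and -0.31. Differently numbered arrays ran from -0.23 to 0.42, the highest for INV16 replicate 2 with ACD mutant replicate 3. Deviations within a group sum to 0 and are not independent, so whether arrays shared an experiment under other numbers cannot be read from these values. With the replicate block 380 genes were called, 54 higher and 326 lower, 183 of them among the 267.

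Of the genes named, directions reversed for Cbfb INV16 minus ACD mutant (-0.019) and Gem (-0.059) with the spike-in block. With all 12 arrays they reversed for Rab44 (0.22), Jund (0.025), Ndrg1 (-0.18), Cbfb (-0.078), Cd34 (-0.59) and Gem (-0.21). Without single arrays Gem ran from -0.094 (without INV16 replicate 2) to 0.817 (without INV16 replicate 3), and Kit from -0.393 to 0.089 without the same arrays. Of 1157 values of named genes under alternatives, 875 kept direction and side of the threshold, 265 kept direction but lost the call, 7 gained it and 10 reversed. The 3 arrays a fusion limit precision. With INV16 replicate 4 left out, only 5 control arrays separate the fusions from the spike-in split.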
